A study of Homo sapiens with 2 samples.

Results

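ABC transporters are membrane proteins that use ATP to move lipids, drugs, peptides, metals and metabolites across membranes. Their gene family is divided into subfamilies lettered A to G, and some members carry no membrane domain and act in translation instead. Their messenger RNA was read here in an established human lung cancer cell line, H1993, and in a derivative selected for resistance to a kinase inhibitor. The members were the rows of the count table whose symbol is ABC, a letter from A to G and a number, which gave 45 of 18944 genes. The superfamily genes CFTR, TAP1 and TAP2 carry other symbols and were set beside them as a list of their own.

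The resistant library came from H1993 cells selected with PHA665752, an inhibitor of the receptor kinase MET, at concentrations raised from 1 nM to 1 µM. This derivative was kept at 1 µM and, per the labels' protocols, spent 1 week without drug before experiments. Its treatment label is PHA665752, and the labels leave unsaid if the cells were in drug at RNA extraction. The parental library came from H1993 cells, a line known for amplification of MET, with DMSO as the treatment label. There was 1 library per group, both from the same starting line, and nothing in the labels says whether the derivative is a single clone.

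An ABC protein binds ATP between paired nucleotide-binding domains, and the energy of hydrolysis turns its membrane domains from one side of the membrane to the other. Several members of subfamilies B, C and G are known for exporting anticancer drugs, which is why the family is often read in drug-resistant lines. Most A members handle lipids, D members serve peroxisomes and lysosomes, and the E and F proteins work on ribosomes.

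The libraries held 17086748 counts (resistant) and 16723181 counts (parental). Values are given in CPM, counts per 1000000 of the effective library size, which is the total multiplied by a scaling factor computed over all genes. A gene was called measured when it reached at least 1 CPM in at least 1 library. The log2 ratio is resistant over parental, and its 95% interval covers counting error only. The 2-fold rule calls a gene higher or lower when its log2 ratio reaches 1 or -1 and its interval does not hold 0. With 1 library per group no spread between cultures could be estimated, so every difference describes these libraries and has no p-value. In RNA from many cells, fewer cells making a transcript and less transcript per cell cannot be told apart.

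Keratin genes marked both libraries as epithelial, while lung markers were scarce or absent. KRT8 had 3394 CPM in the resistant and 2666 CPM in the parental library, while EPCAM had 164 CPM in resistant and 389 in parental cells. The lung lineage factor gene NKX2-1 was at 5.95 CPM (resistant) and 4.16 CPM (parental), and the surfactant genes SFTPB and SFTPC had at most 2 counts in either library. The 3 hepatocyte markers had at most 1 count. Of 3 endothelial markers, CDH5 was higher in the resistant library (29.2 against 0.297 CPM), while PECAM1 and VWF had at most 1 count in either. Of 4 leukocyte markers, CD68 (31.6 CPM in resistant and 86.0 in parental cells) and PTPRC (7 counts in resistant and 21 in parental cells) were lower, with CD3E at 0. Of 4 fibroblast markers, COL1A1 had 14.3 CPM in resistant and 20.7 in parental cells, and DCN was at 0. VIM had 322 CPM in the resistant library and 0.238 CPM in the parental one. Whether these differences have a part in the ABC values was not tested.

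Of the 45 ABC genes, 29 were measured, and the 2-fold rule called 5 of these higher and 3 lower in resistant cells. Among the higher ones were ABCC2, ABCA5, ABCA8 and ABCA10, and the lower ones were ABCC5, ABCB9 and ABCA13. Over all 12245 measured genes, 12.1% were called higher and 8.29% lower, or 20.4% together. The ABC shares were 17.2% higher and 10.3% lower, or 27.6% together, which on 29 genes lies near the background. The median log2 ratio was 0.17 over the 29 genes and 0.00 over all measured genes. The median size of the log2 ratio was 0.39 over the ABC genes and 0.41 over all.

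Of the 29, 4 were under 1 CPM in 1 library and were measured only through the other, which fixes the direction of their difference: ABCA8, ABCA10 and ABCA12, higher in the resistant library, and ABCA13, lower in it. Among the 25 with at least 1 CPM in both libraries, 3 were higher and 2 lower, against 7.70% and 6.61% of the 11182 genes of the table at that level. Intervals excluded 0 for 22 of the 29, against 74.0% of all measured genes, so at this depth many differences far below 2-fold exceed counting error. Other carrier families were counted in the same way. Of 188 measured SLC and SLCO carriers, 18.6% were higher and 9.04% lower, and of the 173 with 1 CPM in both libraries, 16.2% and 6.94%. Of 25 measured P-type ATPases, 5 were higher and 3 lower, and of the 21 with 1 CPM in both libraries, 1 was higher and 3 were lower.

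**Figure D1:**
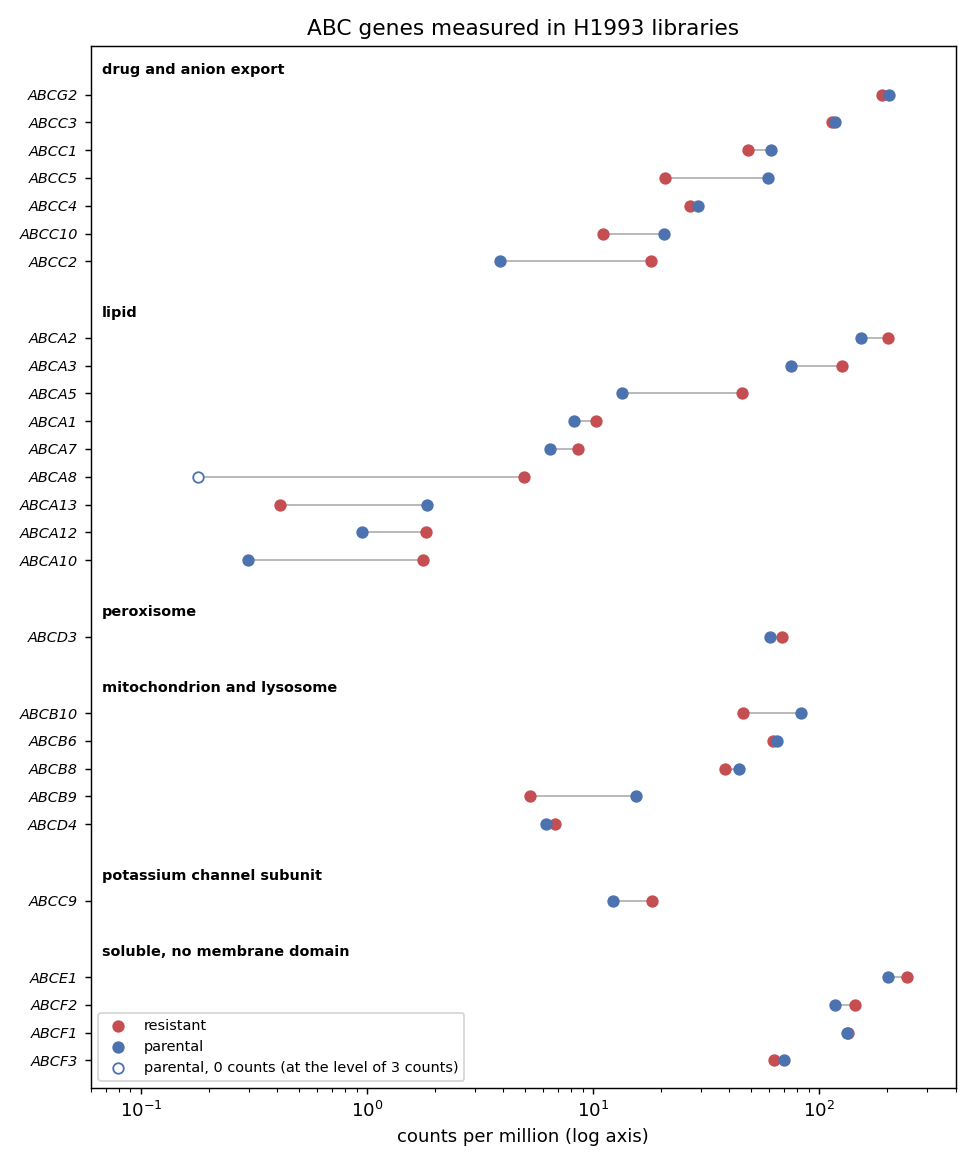
Level of 27 of the 29 measured ABC genes in CPM (log axis), grouped by role, in the resistant (red) and the parental (blue) library, with 1 library per group and no error bars. ABCG2 and ABCE1 sit between 189.9 and 244 CPM in both libraries, while ABCA8, drawn as an open circle at the level of 3 counts, had 0 counts in the parental library.

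**Figure D2:**
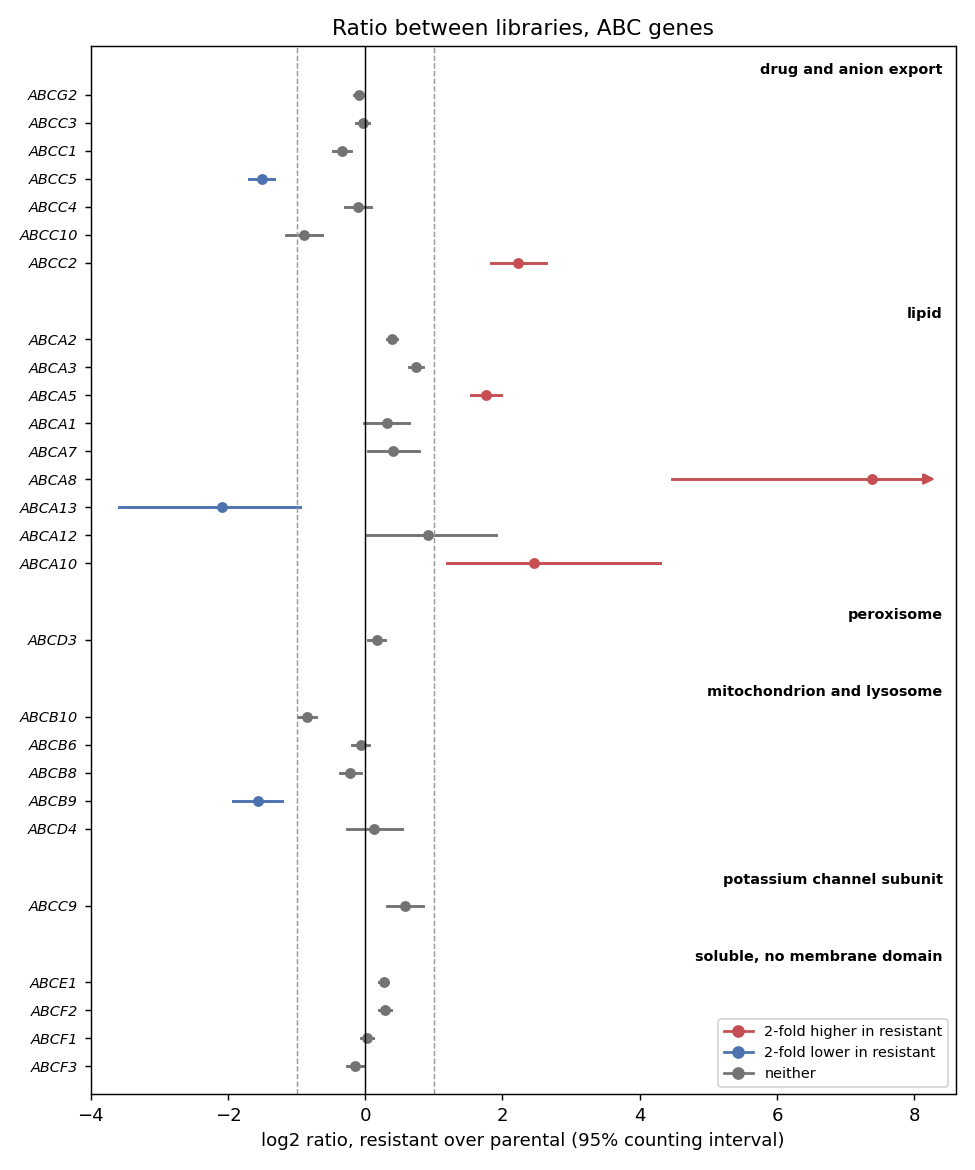
Log2 ratio of the resistant over the parental library for the same 27 genes, with 95% counting intervals as bars and dashed lines at 2-fold. The 4 genes in red and the 3 in blue passed the 2-fold rule, and the arrow marks the open upper end for ABCA8.

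The exporters of drugs and organic anions are the members most often named in drug resistance. ABCG2, known as the breast cancer resistance protein gene, had 3223 counts in the resistant library, against 3420 in the parental one, or 189.9 CPM in resistant and 203 in parental cells. Its log2 ratio was -0.10 (-0.17 to -0.03), so the libraries were close. ABCB1, the gene of P-glycoprotein, had 5 counts in the resistant library and 0 in the parental one, a level below the measuring limit. A count of 0 allows up to 3 counts, or 0.178 CPM in the parental library. P-glycoprotein transcript was thus scarce in both, and the interval of its ratio held 0.

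ABCC2 encodes an exporter of glutathione, glucuronide and sulfate conjugates at the apical membrane. It had 307 counts in the resistant library and 65 in the parental one, or 18.1 CPM in resistant and 3.86 in parental cells. That is 4.66-fold higher (3.57 to 6.22). ABCC5, an exporter of cyclic nucleotides and nucleotide analogs, differed in the other direction, with 353 counts in the resistant and 995 in the parental library, or 20.8 CPM in resistant and 59.1 in parental cells. It was 2.84-fold lower (2.51 to 3.22). Per kilobase of transcript, its level in the resistant library was 6.26 CPM, against 3.32 CPM for ABCC2.

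The remaining measured exporters passed neither way. ABCC3, an exporter of bile salts and glucuronides, had 113.9 CPM (resistant) and 117 CPM (parental), with a log2 ratio of -0.04. The glutathione conjugate exporter gene ABCC1 was at -0.33 (-0.47 to -0.20), with 48.6 CPM in resistant and 61.2 in parental cells. ABCC10, another drug exporter gene, came nearest to the rule on the lower side at -0.89 (-1.15 to -0.63), with 11.1 CPM in resistant and 20.5 in parental cells. ABCC4, which exports cyclic nucleotides and prostaglandins, was at -0.11 with an interval that held 0. Of the 7 measured exporters 6 had ratios below 0, with ABCC2 the exception. Over all 12245 measured genes, 6122 had ratios below 0. Of the 6 exporters, ABCC5 alone passed the rule, and the intervals of ABCC3 and ABCC4 held 0. The 7 measured exporters, with 1 higher and 1 lower, all had at least 1 CPM in both libraries. At that level 7.70% of genes were called higher and 6.61% lower, and 12.1% and 8.29% of all measured genes.

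The 13 exporter genes summed to 7299 counts in the resistant library and 8331 in the parental one, a log2 ratio of -0.20 (-0.25 to -0.16). Of this sum ABCC2 made up 4.21% in the resistant library (Clopper-Pearson 95% interval 3.76 to 4.69%), against 0.78% (0.60 to 0.99%) in the parental one. ABCC5 took 4.84% (4.36 to 5.35%) in resistant and 11.9% (11.3 to 12.7%) in parental cells. ABCG2 took 44.2% in resistant and 41.1% in parental cells. These shares are of counts and take no account of transcript length. The sum thus differed far less than the shares of ABCC2 and ABCC5 in it. The other 6 exporter genes were below the measuring limit: ABCC11 had 4 counts in resistant and 14 in parental cells, ABCC6 had 2 in resistant and 1 in parental cells, ABCB5 had 1 in resistant and 0 in parental cells, ABCB11 had 0 in resistant and 2 in parental cells, and ABCC12 had 0 in both, beside ABCB1. ABCC6 shares 11.5% of its 100-base windows with its pseudogenes ABCC6P1 and ABCC6P2, so its few counts are uncertain.

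**Figure D3:**
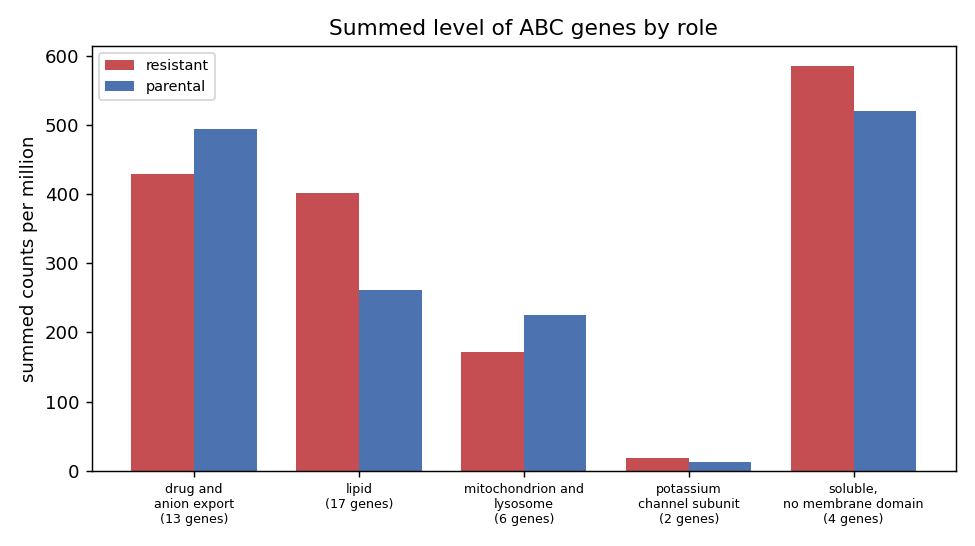
Summed CPM of the ABC genes of 5 roles in the resistant (red, left bars) and the parental (blue, right bars) library, with 1 library per group and no error bars. Lipid transporters reach 401 CPM in the resistant library, against 261 CPM in the parental one, and the drug and anion exporters 430 CPM in resistant and 495 in parental cells. The sums take no account of transcript length, so bars compare the libraries within a role and not the roles.

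Of 9 measured lipid transporters 3 were called higher and 1 lower, against 12.1% and 8.29% of all measured genes. ABCA8, ABCA10, ABCA12 and ABCA13 are among the 9 and were measured only through 1 library. Of the 5 with at least 1 CPM in both libraries, ABCA5 was called higher and 0 were called lower, against 7.70% and 6.61% of genes at that level. The 5 ratios were above 0, as were those of 5411 of the 11182 genes at that level. The median log2 ratio of the 5 was 0.41. The 17 genes summed to 6811 counts in the resistant library and 4390 in the parental one, a log2 ratio of 0.62 (0.57 to 0.68). ABCA2, a lysosomal lipid transporter gene, had 3406 counts in resistant and 2585 in parental cells, with a ratio of 0.39 (0.31 to 0.46). ABCA3 loads surfactant phospholipid into the lamellar bodies of alveolar type 2 cells, and it had 2130 counts in the resistant and 1260 in the parental library. Its ratio was 0.75 (0.64 to 0.85), short of the rule. These abundant genes supplied most of the summed difference.

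ABCA1, which passes cholesterol to apolipoprotein A1, had 174 counts in the resistant and 139 in the parental library, a ratio of 0.31 whose interval held 0. ABCA7, a phospholipid transporter gene, was at 0.41 (0.04 to 0.78). ABCA12, the keratinocyte lipid transporter gene, had 31 counts in resistant and 16 in parental cells. ABCA13, the gene of the longest transcript in the family, had 7 counts in resistant and 31 in parental cells, a log2 ratio of -2.08 (-3.59 to -0.95). The lower call of ABCA13 rests on these few counts.

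The sterol exporter genes of subfamily G were scarce. ABCG1 had 4 counts in the resistant and 9 in the parental library, ABCG4 had 8 in resistant and 5 in parental cells, and ABCG5 and ABCG8 had 0 in both. The phosphatidylcholine exporter gene ABCB4 had 0 in both, and ABCA4, the retinal lipid transporter gene, had 12 in resistant and 1 in parental cells. Regulators of sterol balance, fixed as a list of 19, had 16 measured members and a median log2 ratio of -0.29. Of the 16, 0 were called higher and 2 lower, against 12.1% and 8.29% of all measured genes. The lower ones were NR1H3, the gene of the sterol receptor LXR alpha (14.2 CPM in resistant and 31.2 in parental cells), and LPCAT3, a known LXR target (21.7 CPM in resistant and 50.1 in parental cells). NR1H2, the gene of the partner receptor LXR beta, had 144 CPM in resistant and 78.3 in parental cells. ABCA1 and ABCG1 are themselves known LXR targets, of which ABCA1 did not pass the rule and ABCG1 was below the measuring limit.

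ABCA5, ABCA6, ABCA8, ABCA9 and ABCA10 lie side by side on chromosome 17 in RefSeq's gene order, with no other gene of the table between them. This block was chosen after its values were seen. ABCA5, a transporter gene of lysosomes and late endosomes, had 771 counts in the resistant library and 226 in the parental one, or 45.4 CPM in resistant and 13.4 in parental cells, and was 3.38-fold higher (2.91 to 3.94). ABCA8, a gene linked to cholesterol export, had 84 counts in resistant and 0 in parental cells. It was 27.8-fold higher when the parental level is taken as 3 counts, and the lower end of its counting interval was 22.1-fold. ABCA10 had 30 counts in resistant and 5 in parental cells, or 5.50-fold (2.29 to 19.6). ABCA9 had 5 in resistant and 3 in parental cells, and ABCA6 had 3 in resistant and 1 in parental cells.

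All 5 genes of the block had more counts in the resistant library. Over all 12245 measured genes, 6123 had ratios above 0. ABCA6 and ABCA9 were below the measuring limit, and their intervals held 0. The 3 measured members were called higher, against 12.1% of all measured genes. Of these 3, ABCA8 and ABCA10 were measured only through the resistant library and could be called only higher. ABCA5 and ABCA10 share a small part of their exons and 2.70% and 3.50% of their windows, so some ABCA10 counts may belong to ABCA5. Of the 5 flanking genes of the table on each side, 8 were measured. Of these, 4 were higher and 0 lower, against 12.1% and 8.29% of all measured genes. The higher ones were SLC16A6 (2103 counts in resistant and 64 in parental cells), WIPI1 (379 in resistant and 133 in parental cells), ARSG (266 in resistant and 130 in parental cells) and KCNJ2 (67 in resistant and 6 in parental cells). KCNJ2, at 0.356 CPM in the parental library, was measured only through the resistant one and could be called only higher. PRKAR1A, inside the same stretch, had 7217 counts in resistant and 7040 in parental cells, a log2 ratio of 0.02, and SOX9 had 992 in resistant and 1424 in parental cells. The stretch therefore held higher genes beside genes with ratios near or below 0, and DNA copy number was not read.

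**Figure D4:**
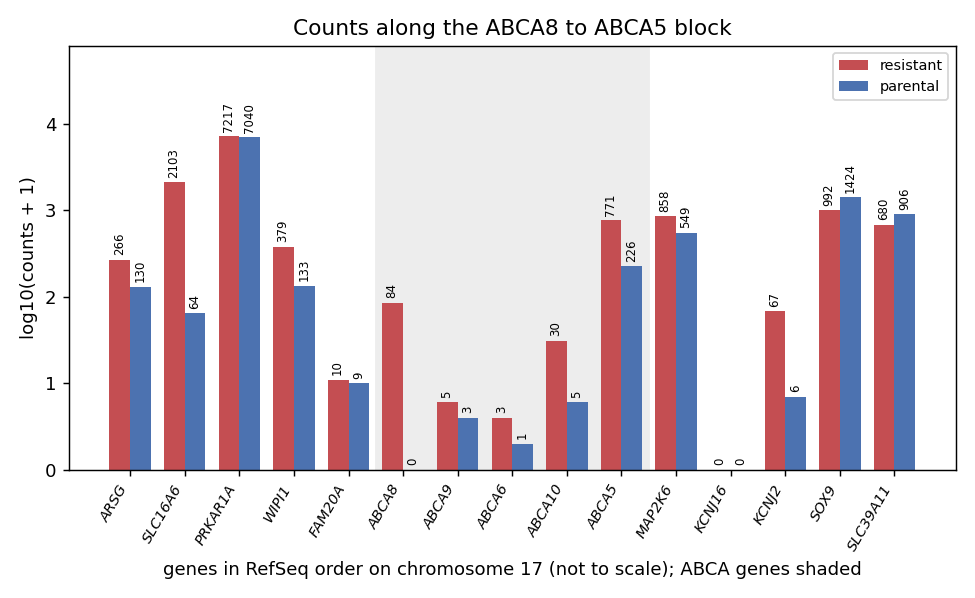
Counts of the 5 adjacent ABCA genes (shaded) and of 5 genes on each side, in RefSeq order along chromosome 17, as log10(counts + 1), with the raw count on each bar, in the resistant (red, left) and the parental (blue, right) library. Each ABCA gene has the taller resistant bar, while PRKAR1A is level and SOX9 and SLC39A11 have the taller parental bar.

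The starts of ABCA5 and ABCA10 show how unlike the promoters of neighbouring higher genes can be. RefSeq (GRCh38.p14) gives 250 bases before to 50 after each start. ABCA5 is at chr17:69327084-69327383 and ABCA10, of which the first of 2 listed starts is shown, at chr17:69244799-69245098, both on the minus strand. Capitals mark the GC box GGGCGG and the core of the antioxidant response element, TGACNNNGC, both searched on both strands, and these matches do not overlap each other.
ABCA5: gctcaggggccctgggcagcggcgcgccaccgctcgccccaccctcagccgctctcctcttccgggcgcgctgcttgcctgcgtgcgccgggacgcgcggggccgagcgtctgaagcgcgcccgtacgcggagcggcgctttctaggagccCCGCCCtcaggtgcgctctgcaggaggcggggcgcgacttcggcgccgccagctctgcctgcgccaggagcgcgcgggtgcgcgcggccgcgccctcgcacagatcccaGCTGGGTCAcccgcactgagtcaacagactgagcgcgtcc
ABCA10: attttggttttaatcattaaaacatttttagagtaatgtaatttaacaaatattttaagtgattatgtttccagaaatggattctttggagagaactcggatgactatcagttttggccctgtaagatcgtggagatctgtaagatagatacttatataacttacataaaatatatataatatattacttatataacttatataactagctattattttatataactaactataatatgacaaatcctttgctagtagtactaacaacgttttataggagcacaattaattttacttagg
The ABCA5 window had 45 CpG dinucleotides and 76.3% G and C, with 1 match to each motif. The ABCA10 window had 3 CpG dinucleotides and neither motif, in a run of bases that is mostly A and T.

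Peroxisomal transporters bring very long chain and branched fatty acids, as coenzyme A esters, into the peroxisome. ABCD3, the gene of an abundant protein of the peroxisomal membrane, had 68.1 CPM in resistant and 60.5 in parental cells, a log2 ratio of 0.17 (0.05 to 0.29). ABCD2 had 0 counts in both. The list of 19 peroxisome genes of biogenesis and fatty acid oxidation, all measured, had a median log2 ratio of -0.33. Of the 19, 0 were called higher and 1 lower, against 12.1% and 8.29% of all measured genes. The lower one was SCP2, the gene of a sterol carrier and thiolase (826 counts in resistant and 1684 in parental cells). PEX19, the gene of the chaperone that delivers ABCD proteins to the membrane, had 110 CPM in resistant and 138 in parental cells.

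The 6 members of mitochondria and lysosomes were all measured, with 0 higher and 1 lower, against 12.1% and 8.29% of all measured genes. ABCB9, the gene of a lysosomal peptide transporter, had 89 counts in the resistant library and 261 in the parental one, or 5.24 CPM in resistant and 15.5 in parental cells, and was 2.95-fold lower (2.32 to 3.81). The genes OGFOD2 and ARL6IP4 lie on the other strand and overlap 24.5% of its exon bases together with AC026362.1, and whether counting used strand is not given. OGFOD2 and ARL6IP4 had ratios of -0.23 and -0.08, nearer to 0 than ABCB9. On its other side VPS37B (-1.75) and HIP1R (-1.27) were also lower. Of the 3 flanking genes of the table on each side of ABCB9, 5 were measured. Of these, 0 were higher and 2 lower, against 12.1% and 8.29% of all measured genes. None of 5 measured flanking genes of ABCC2 and of 3 of ABCC5 was called. Of 3 measured around ABCA13, 1 was higher and 1 lower.

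ABCB10, the gene of an inner membrane transporter needed for heme synthesis in mouse red cell precursors, was at -0.84 (-0.97 to -0.72), with 46.2 CPM in resistant and 83.0 in parental cells. ABCB8, also mitochondrial, was at -0.21, and ABCB6, a porphyrin transporter gene, at -0.06. A read-through transcript, AC068946.2, holds 87.3% of the windows of ABCB6, so its counts depend on how shared reads were assigned. None of 20 measured heme and iron-sulfur genes was called, with 0 higher and 0 lower, against 12.1% and 8.29% of all measured genes. Their median log2 ratio was 0.10. ABCD4, which moves vitamin B12 out of lysosomes, had 115 counts in resistant and 104 in parental cells. The gene of its partner LMBRD1 had 91 in resistant and 190 in parental cells and was lower (-1.07). Partners of ABC proteins, a fixed list of 18, had 14 measured genes. Of these, 0 were higher and 1 lower, against 12.1% and 8.29% of all measured genes.

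The regulatory subunits of ATP-sensitive potassium channels are ABC proteins that transport nothing themselves. ABCC9 had 309 counts in the resistant and 205 in the parental library, a log2 ratio of 0.58 (0.32 to 0.84). ABCC8 had 0 in both. The pore genes these subunits need were scarce: KCNJ8 had 0 counts in both libraries and KCNJ11 had 5 in resistant and 12 in parental cells.

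None of the 4 members without a membrane domain passed the rule. ABCE1, which splits ribosomes after termination, had 4143 counts in resistant and 3399 in parental cells, a ratio of 0.27 (0.21 to 0.34). The translation factor genes ABCF1, ABCF2 and ABCF3 were at 0.02, 0.29 and -0.15, so all 4 lay within 0.5 of 0, as did 57.4% of all measured genes. Partners in the same process also stayed short of the rule, with PELO at 0.50, HBS1L at 0.60 and the release factor gene ETF1 at 0.15. ABCF2 shares 52.7% of its windows with the read-through gene AC021097.2.

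Levels of different genes can be compared only per length, for which the deposited log2 values were used. They behave as log2 of 1 plus the CPM per kilobase of transcript, here with CPM over the library total. This reading was inferred from the values, and annotated transcript lengths gave a loose check of it. On that scale ABCE1 was first in both libraries, at 58.9 (resistant) and 48.7 (parental) CPM per kilobase. ABCF2 (46.8 in resistant and 38.4 in parental cells), ABCG2 (43.3 in resistant and 46.3 in parental cells) and ABCF1 (39.6 in resistant and 39.0 in parental cells) followed, in an order that differs between the libraries. ABCG2 was the highest of the membrane transporters in both. No spread between cultures is known for these ranks, and close neighbours in them cannot be put in order.

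ABCC2 ranked 19 of the 45 members by this measure in the resistant library and 25 in the parental one. ABCA5 ranked 17 in resistant and 21 in parental cells, and ABCC5 15 in resistant and 11 in parental cells. ABCC2, though 4.66-fold higher, was at 3.32 CPM per kilobase in the resistant library, against 43.3 for ABCG2 and 24.7 for ABCC3 there. The called genes were therefore not the most abundant members. By differences of 1 or more in the deposited log2 values, 3 members were higher and 2 lower, against 7.56% and 4.83% of all measured genes.

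**Figure D5:**
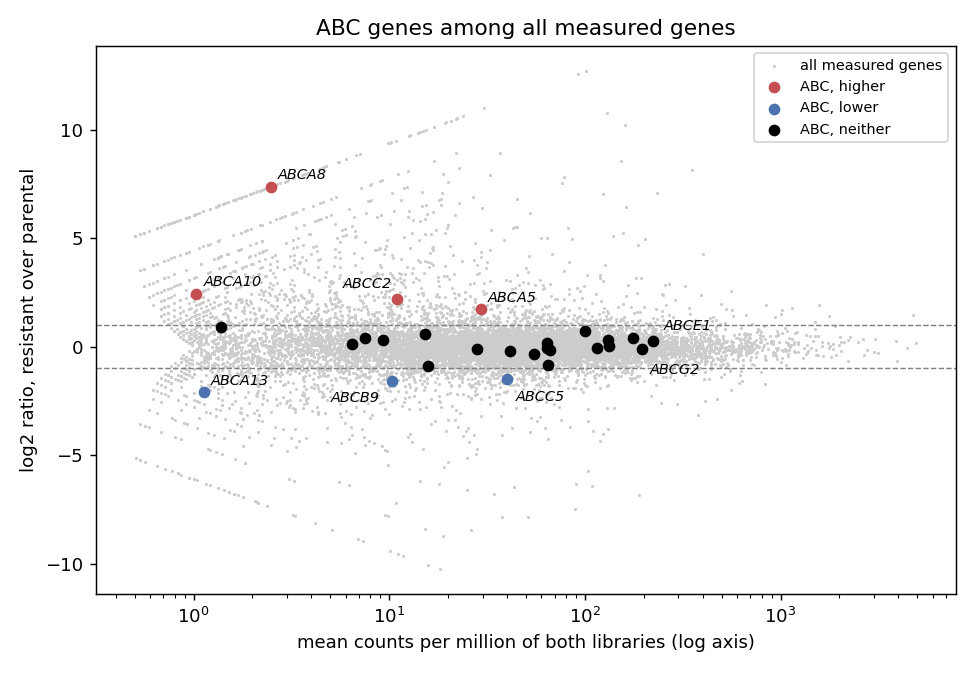
Log2 ratio of the resistant over the parental library against the mean CPM of both libraries (log axis) for all 12245 measured genes (grey) and 27 measured ABC genes (large points, red higher, blue lower, black neither), with dashed lines at 2-fold. The 7 called ABC genes drawn large lie at lower mean levels than ABCE1 and ABCG2, and within the grey cloud.

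The promoters of the called exporters and of the lysosomal ABCB9 were read for the same motifs as those of ABCA5 and ABCA10. ABCC2, higher in the resistant library, starts in chr10:99782390-99782689 (plus strand). The lower genes ABCC5 and ABCB9 start in chr3:184017835-184018134 and chr12:122966414-122966713 (minus strand), and the ABCB9 window is the first of 3 listed starts.
ABCC2: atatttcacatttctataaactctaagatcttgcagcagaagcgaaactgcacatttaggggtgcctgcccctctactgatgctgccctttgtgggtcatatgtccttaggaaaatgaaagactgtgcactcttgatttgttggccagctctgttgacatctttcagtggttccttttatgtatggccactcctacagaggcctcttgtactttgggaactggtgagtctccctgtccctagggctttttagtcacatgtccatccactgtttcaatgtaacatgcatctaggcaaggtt
ABCC5: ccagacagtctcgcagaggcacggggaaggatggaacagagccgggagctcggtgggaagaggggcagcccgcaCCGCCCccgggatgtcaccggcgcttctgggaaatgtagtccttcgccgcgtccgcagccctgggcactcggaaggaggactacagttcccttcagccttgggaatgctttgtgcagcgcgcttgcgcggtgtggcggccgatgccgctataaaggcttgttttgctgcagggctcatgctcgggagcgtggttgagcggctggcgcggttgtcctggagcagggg
ABCB9: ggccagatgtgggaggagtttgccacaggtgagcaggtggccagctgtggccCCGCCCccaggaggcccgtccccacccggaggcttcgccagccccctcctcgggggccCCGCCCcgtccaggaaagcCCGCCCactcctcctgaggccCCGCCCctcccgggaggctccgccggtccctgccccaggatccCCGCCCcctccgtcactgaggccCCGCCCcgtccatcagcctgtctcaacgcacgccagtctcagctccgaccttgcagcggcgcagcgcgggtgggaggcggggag
ABCC2 had 1 CpG dinucleotide and neither motif, ABCC5 had 26 and 1 GC box, and ABCB9 had 24 and 6 GC boxes. ABCC2 is known as a target of NRF2, the factor that binds the antioxidant response element, and the absence of the core here says only that these letters are not in this window.

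Promoters were listed for 35 of the 45 members, and ABCA8 was among those with no entry. Only the first listed start of each gene was read. Of the 35 members, 12 had more than 1 listed start, among them ABCG2 with 5, and the other starts were not read. The antioxidant core was found in 7 of the 35 (20.0%), against 13.6% of 27305 promoters of the same length, and the GC box in 18 (51.4%), against 44.6%. Among the 6 called genes with an entry, the antioxidant core was in that of ABCA5 only. The 24 measured members had a median of 24 CpG dinucleotides, the 11 not measured a median of 5, and all promoters a median of 14. The groups overlapped: ABCC2, ABCA12, ABCA10, ABCA13 and ABCG2 were measured with 1 to 3, and ABCC6 and ABCG4 were not measured with 25 and 26.

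Regulators of drug metabolism, a fixed list of 18, had 14 measured members. Of these, 2 were higher and 0 lower, against 12.1% and 8.29% of all measured genes. NFE2L2, the gene of NRF2, had 252 CPM in the resistant library and 63.3 CPM in the parental one, a log2 ratio of 1.99. AHRR, the repressor of the aryl hydrocarbon receptor, was at 2.38. The receptor genes NR1I2 (0 counts in both) and NR1I3 (9 in resistant and 8 in parental cells), known inducers of ABCB1 and ABCC2 in liver, were below the measuring limit. KEAP1, the inhibitor of NRF2, was at 0.17.

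Among genes of conjugation, whose products ABCC proteins export, the rule called 6 of 19 measured genes higher and 0 lower, against 12.1% and 8.29% of all measured genes. Of the 6, GSTM4, GSTM3, GGT1 and UGT1A1 were measured only through the resistant library and could be called in 1 direction only. Of the 15 genes with at least 1 CPM in both libraries, 2 were higher and 0 lower, against 7.70% and 6.61% of all genes at that level. UGT1A6 had 80.6 CPM in resistant and 11.2 in parental cells, GGT1, which degrades exported glutathione, had 17.3 CPM in resistant and 0.713 in parental cells, and GSTM4 had 426 counts in resistant and 0 in parental cells. GSTM3 (264 counts in resistant and 2 in parental cells), GSTA4 (83 in resistant and 30 in parental cells) and UGT1A1 (22 in resistant and 0 in parental cells) were the others. These genes have close copies or shared exons, so the split among them is uncertain. GCLC and GCLM, the rate-limiting enzyme of glutathione synthesis, were at 0.10 and 0.15.

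Of 21 uptake and exchange carriers of organic ions 6 were measured, with 2 higher and 1 lower, against 12.1% and 8.29% of all measured genes. Each of the 3 called genes was under 1 CPM in the other library and could be called in 1 direction only. Of the 3 carriers with at least 1 CPM in both libraries, 0 were higher and 0 lower. SLC47A1, a proton exchanger that expels organic cations, had 400 counts in resistant and 2 in parental cells, and the carnitine-family carrier gene SLC22A4 had 75 in resistant and 15 in parental cells. SLCO2A1, the prostaglandin carrier gene, was lower, with 4 counts in resistant and 37 in parental cells. SLCO4A1, an organic anion carrier gene, had 111 CPM in resistant and 85.4 in parental cells and passed neither way. The superfamily genes with other symbols differed in each direction. CFTR, the chloride channel gene, had 1 count in resistant and 61 in parental cells. It was measured only through the parental library and could be called only lower. The peptide transporter gene TAP1 had 1418 in resistant and 358 in parental cells (ratio 1.97), and its partner TAP2 had 1519 in resistant and 1468 in parental cells (0.04). ABCB9 is the nearest relative of TAP1 and TAP2, and it was lower where TAP1 was higher.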

How the data were processed

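Per the labels' protocols, total RNA from TRIzol extraction went into TruSeq libraries. The deposited table holds raw counts per gene symbol, per the file headers, and 1 normalized log2 value per gene and library made by the authors with a method not given in the sources used here. The submitters' processing notes name FastQC and STAR, and the builds GRCh38 and hg19, with no roles or versions. The counting program, annotation and strand setting are not given.

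Scaling factors (trimmed mean of M-values, edgeR 4.0.16, R 4.3.3) were computed over all 18944 genes. The effective sizes were 16974207 (resistant) and 16834058 (parental). Log2 ratios had 0.5 added to each count, and exact conditional binomial (Clopper-Pearson) 95% intervals came from scipy 1.17.1. Reads are not independent molecules, so intervals cover counting error only. Calls and intervals were also run on simulated counts. These held counting error only, as the intervals assume, so that run says nothing of the spread between cultures.

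Shared 100-base windows, exon overlaps and lengths came from GENCODE 29, on the longest coding transcript of each member. Gene order, from RefSeq GRCh38.p14, covered 45 of 45 members, and no coordinates of the counted reads are given because the build is unclear. Some genes are not reported here and are left out of the figures that name genes, though all counts and medians include them. Other genes were named from fixed lists, apart from the flanking genes of called members and the chromosome 17 block, chosen after the values were seen. Members and lists were chosen with earlier results of these data known. Alternatives tried were other scalings, filters, offsets and call rules, and the deposited log2 values.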

Additional observations from a re-analysis of the deposited data

How the results depend on the processing

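With relative log expression, total count or upper quartile scaling, 5 ABC genes stayed higher and 3 lower, no measured member changed sign, and the median log2 ratio lay between 0.15 and 0.18. Requiring at least 5 CPM left 25 members with 3 higher, and 2 lower (9.38% and 7.01% of all genes), because ABCA8, ABCA10 and ABCA13 were no longer measured. With a log2 ratio of 2 or more in size, 4 were higher and 1 lower, against 6.32% and 2.93%. With the deposited log2 values, 3 were higher (ABCA5 and ABCC2 among them) and 2 lower (ABCB9 and ABCC5), against 7.56% and 4.83% of all measured genes. There ABCA8, ABCA10 and ABCA13 differed by 0.87, 0.29 and -0.11, since the offset of 1 in those values shrinks differences of scarce genes. No filter on low counts gave 6 higher and 4 lower of 39 members with a count, against 11.2% and 7.23%. Requiring the whole interval beyond 2-fold lost ABCA13. No paired analysis was possible because each group has 1 library, and leaving out a library leaves no comparison. Depth limits the members under about 30 counts, whose intervals span several-fold.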

Other observations

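A length links each count to its deposited value. It was taken as the CPM over the library total divided by the CPM per kilobase read from the deposited value. For some members, as for some other genes of the table, its ratio between the libraries stood apart from the rest, which the counts alone do not show. For 25 members with at least 50 counts in both libraries, this length was set against the shortest and longest annotated coding transcripts, allowing 5%. It lay within this range for 24 in the resistant and 23 in the parental library. ABCA5 was above it in both and ABCE1 above it in the parental one. The range is wide for some members, such as ABCC3 (656 to 5716 bases), so the check is loose. Over 8345 genes with at least 200 counts in both libraries, the resistant over parental ratio of this length had a median of 0.986, and 5th and 95th percentiles of 0.968 and 0.996. Of 17 members at that depth, 4 lay outside these percentiles, which by definition leave out genes of the whole table too. ABCD3 was at 1.10, with 2866 bases in the resistant and 2598 in the parental library, ABCC5 at 0.902 (3300 bases resistant, 3657 bases parental), ABCC4 at 0.931 (5358 bases resistant, 5754 bases parental), and ABCA5 at 0.998, just past the upper percentile. ABCD3 therefore had a log2 ratio of 0.17 by counts and a difference of 0.01 in the deposited log2 values. Which transcripts were read was not tested. ABCC6, with 2 counts in the resistant and 1 in the parental library, had deposited log2 values of 0.292 (resistant) and 0.017 (parental), so its deposited value in the resistant library stands on 2 counts.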
